A study of Mus musculus with 11 samples.

Results

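Cholesterol genes of the mammary gland were described in mice that lack or keep Tsc1 in adipocytes. The 28 genes were a named list covering cholesterol synthesis, sterol sensing, sterol transport and the oxysterol receptors, out of 22196 genes with summed counts, and all 28 passed the filter on low counts. Other genes of the pathway are given as counts further on or were not analysed here. RNA-seq was made from inguinal mammary glands, with 6 knockout libraries (Tsc1-fl/fl; Adipoq-Cre-Tg/+) and 5 wild-type libraries (Tsc1-fl/fl; Adipoq-Cre-+/+). Both groups carried floxed Tsc1, so they differed in the Adipoq-Cre transgene, which is active in adipocytes, whereas the RNA came from the whole gland. Glands were taken 16 days after delivery (age label PND16.5) from animals on normal chow with free access to milk. The labels number the libraries within each group but do not state that each is a separate animal, so p-values measure only the spread between these libraries.

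Cholesterol is built from acetyl-CoA in a cytosolic and endoplasmic reticulum pathway that passes through mevalonate, isoprenoid diphosphates and squalene before the sterol ring is closed and trimmed. The pathway is controlled by SREBP2, the product of Srebf2, a membrane-bound transcription factor that SCAP escorts to the Golgi when sterols are low and that INSIG proteins hold back when sterols are high. The lactating gland secretes cholesterol in the membrane around milk fat globules, taking it from blood and from its own synthesis.

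The depth was 25817975 to 37894237 estimated reads per library, of which the 28 genes together held 0.065 to 0.101%. Milk protein genes, which mark the labelled tissue, were abundant: 7 markers of milk secretory cells held 53.2% ± 3.12 (SD, n = 6) of knockout reads and 56.2% ± 2.35 (SD, n = 5) of wild-type reads. Tsc1 itself averaged 10.1 ± 1.33 CPM (counts scaled to effective library size, SD, n = 6) in the knockout group against 10.7 ± 1.11 (SD, n = 5) in the other. It differed by -0.09 on the log2 scale (SE 0.11, edgeR adjusted p = 0.772). These counts are summed over the whole gene and the whole gland, and loss of Tsc1 in adipocytes was not tested. The summed level of 8 adipocyte markers ran from 1172 to 1728 CPM for the knockout group. For the wild-type group it ran from 707.2 to 1039 CPM, without overlap. Cfd was the largest part of that sum, with a knockout mean of 905.3 CPM and a wild-type mean of 527.5 CPM. Taken singly, each of the 8 markers overlapped between the groups, and Lep was lower in knockout. The part of adipocyte content in the differences below was not tested. In whole tissue, fewer cells of a type and less RNA per cell cannot be told apart.

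The 5 upstream stretches below were chosen after the values were seen, from genes that varied differently over the libraries: Hmgcs1, Mvk and Insig1 varied with the pathway, while Ebp and Scap did not. They are from RefSeq (GRCm38.p6), 5′ to 3′ on the gene's strand, up to 250 bases before the start site and free of exons: Hmgcs1 chr13:119690101-119690350 (+), Mvk chr5:114444061-114444268 (+), Insig1 chr5:28071162-28071362 (+), Ebp chrX:8193513-8193762 (-) and Scap chr9:110333038-110333287 (+). Capitals mark CCAAT or its complement ATTGG, the box bound by NF-Y, and CACNCCAC, a form of the sterol regulatory element bound by SREBPs.
Hmgcs1: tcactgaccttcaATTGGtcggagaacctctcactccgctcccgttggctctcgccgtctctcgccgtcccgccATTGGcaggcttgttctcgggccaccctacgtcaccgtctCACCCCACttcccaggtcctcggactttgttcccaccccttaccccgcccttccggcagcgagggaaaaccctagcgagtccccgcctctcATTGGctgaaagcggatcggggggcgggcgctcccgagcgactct
Mvk: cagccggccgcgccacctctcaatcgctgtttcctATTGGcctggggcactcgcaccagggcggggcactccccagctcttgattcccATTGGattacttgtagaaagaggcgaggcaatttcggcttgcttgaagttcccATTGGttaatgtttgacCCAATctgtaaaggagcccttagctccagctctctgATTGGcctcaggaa
Insig1: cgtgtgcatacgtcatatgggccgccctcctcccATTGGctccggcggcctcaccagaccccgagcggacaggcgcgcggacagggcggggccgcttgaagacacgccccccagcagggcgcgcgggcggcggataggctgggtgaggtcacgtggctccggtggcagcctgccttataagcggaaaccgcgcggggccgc
Ebp: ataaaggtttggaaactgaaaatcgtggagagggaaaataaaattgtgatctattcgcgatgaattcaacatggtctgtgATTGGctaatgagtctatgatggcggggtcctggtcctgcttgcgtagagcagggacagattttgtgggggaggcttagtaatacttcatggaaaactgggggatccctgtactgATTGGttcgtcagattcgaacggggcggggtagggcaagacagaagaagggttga
Scap: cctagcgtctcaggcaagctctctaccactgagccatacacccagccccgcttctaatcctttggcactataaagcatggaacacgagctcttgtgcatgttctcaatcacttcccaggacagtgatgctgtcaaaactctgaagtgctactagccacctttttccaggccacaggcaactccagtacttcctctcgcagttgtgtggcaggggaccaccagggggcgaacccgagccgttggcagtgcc
The Hmgcs1 stretch holds 3 CCAAT boxes and 1 CACNCCAC match, Mvk 5 boxes, Ebp 2, Insig1 1 and Scap none. RefSeq promoters were matched for 23 of the 28 genes, and Fdps, Fdft1, Sqle, Npc1 and Stard4 had no entry. The 250 bases before each start were searched on both strands, and a gene counted if any of its RefSeq starts matched (30 starts for the 23 genes). CCAAT was found in 19 of 23 genes (82.6%), against 40.3% of the 9839 tested genes with a promoter. Start by start it was in 19 of 30 (63.3%), against 33.9% of all 32851 promoters. CACNCCAC was found in Acat2, Hmgcs1 and Insig1 (tested genes 6.60%, all promoters 5.29%), for Insig1 outside the stretch printed, and the longer TCACNCCAC, which contains it, in Hmgcs1 alone (1.22% and 1.05%). GGGCGG, the Sp1 box, was in 19 of 23 genes (tested genes 63.7%) and in 21 of 30 starts (70.0%, all promoters 32.7%). CACGTG, an E-box, was in 5 genes (tested genes 9.73%, all promoters 6.02%). The other motifs searched overlap these: TCACNTGA was in 1 of 23 genes (tested genes 4.05%, all promoters 3.46%), TCACGTGA in 0 (1.74% and 0.785%), CACNCCA in 7 (18.1% and 15.6%), TCACNCCA in 3 (3.99% and 3.67%) and TCACCCCAC in 1 (0.6% and 0.496%). Shares of all promoters are counted per start. CACNCCA was in 8 of 30 starts (26.7%), and each motif other than GGGCGG and CACNCCA was in as many starts as genes. A match is a description of letters, and Ebp, which holds CCAAT boxes, did not vary with the other enzymes.

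Levels between genes were compared as CPM per kilobase (CPM/kb) of the listed length of each gene's most counted transcript. Up to squalene the level differed from step to step, with no steady order. Acat2, the cytosolic thiolase that starts the pathway, stood at 39.8 ± 6.96 CPM/kb (SD, n = 11), Hmgcs1, HMG-CoA synthase, at 17.3 ± 5.56, and Mvk, mevalonate kinase, at 9.85 ± 1.71. Pmvk, the next kinase, was at 37.65 ± 7.597, Mvd, the decarboxylase, at 17.3 ± 4.34, and Idi1, the isomerase of isopentenyl diphosphate, at 16.3 ± 3.91. Fdps, which makes farnesyl diphosphate, was the highest enzyme at 111 ± 20.1, and its lowest library (83.7) lay above the highest library of every other enzyme. Fdft1, squalene synthase, was at 24.7 ± 4.82 CPM/kb. Fdps shared 62.8% of its 31-base words with other listed transcripts, and Gm43738, which overlaps it, held 177 to 290 reads per library beside 2925 to 5198 for Fdps, so its level is uncertain. Acat2 shared 45.1% of its words with other transcripts, mainly Acat3, which held 21 reads over all libraries against 16199 for Acat2.

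**Figure D1:**
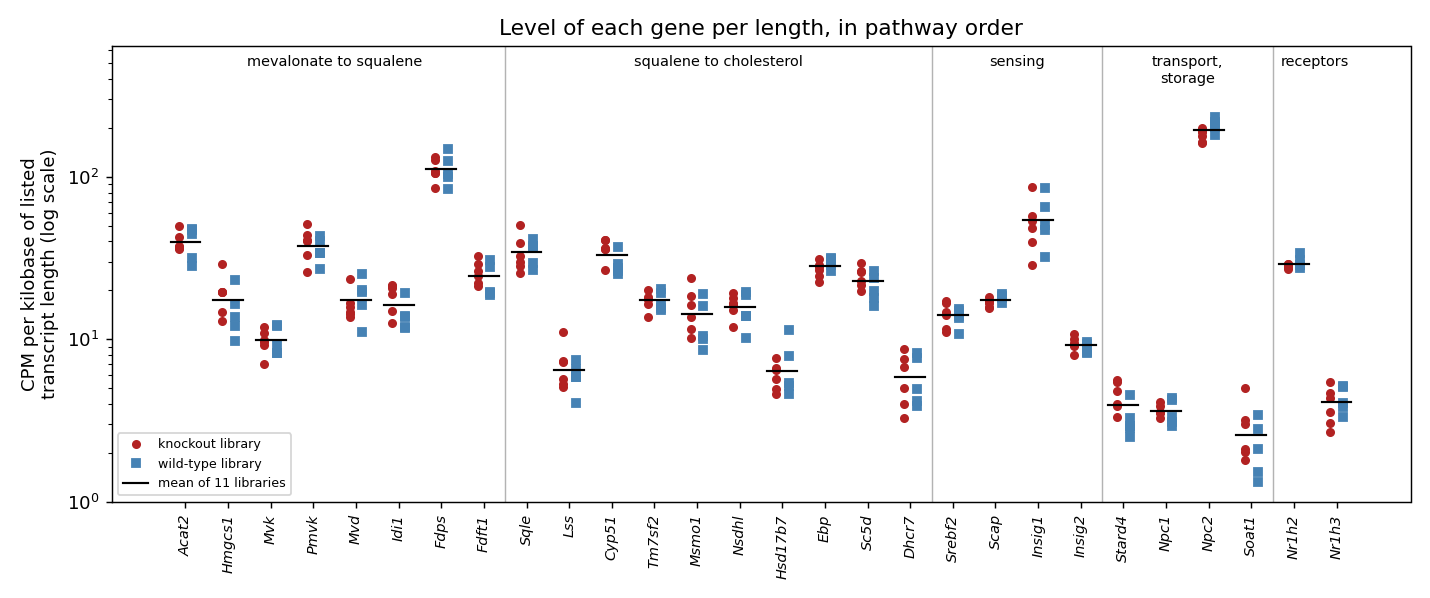
Level of each of the 28 genes per length, in pathway order. The y axis is CPM per kilobase of listed transcript length on a log scale, points are single libraries (6 knockout, 5 wild-type) and bars are means of 11 libraries. On this scale Npc2, Fdps and Insig1 stand highest, at means of 193.6, 111.3 and 53.96, and Soat1 lowest at 2.572; by TPM, Nr1h2 stands above Insig1.

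Among the sterol enzymes, Sqle, squalene epoxidase, at 34.31 ± 7.504 CPM/kb, Cyp51, lanosterol demethylase, at 32.8 ± 5.97, and Ebp, the sterol isomerase, at 28.1 ± 2.87 were highest, with library ranges that overlap one another. The lowest enzymes were Lss, lanosterol synthase, at 6.48 ± 1.83, Hsd17b7, a keto-sterol reductase, at 6.38 ± 1.99, and Dhcr7, the reductase of a final step, at 5.83 ± 1.97, whose ranges also overlap. Sc5d, a desaturase, Tm7sf2, a sterol reductase, Nsdhl, a sterol dehydrogenase, and Msmo1, a methylsterol oxidase, lay between, at means of 22.7, 17.3, 15.8 and 14.4 CPM/kb. For the sensing genes the means were 54.0 (Insig1), 17.4 (Scap), 13.99 (Srebf2) and 9.17 CPM/kb (Insig2). Npc2, the soluble lysosomal sterol carrier, was the highest of all 28 at 194 ± 22.0, while its membrane partner Npc1 was at 3.61 ± 0.473. Stard4, a cytosolic sterol carrier, was at 3.92 ± 1.07 and Soat1, which esterifies cholesterol, at 2.57 ± 1.07 CPM/kb. Of the oxysterol receptors, Nr1h2 was at 29.0 ± 1.84 and Nr1h3 at 4.10 ± 0.915 CPM/kb, and their library ranges did not overlap.

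The order depends on the length used. By the deposited TPM summed per gene, Npc2 (193.7) and Fdps (68.08) were again highest, but Nr1h2 (62.4) came next, Pmvk (31.59) passed Insig1 (30.63) and Acat2 (18.26), and Insig2 (22.14) passed Scap (9.27) and Srebf2 (5.262). Of the Nr1h2 TPM, 75.0% came from a listed transcript of 171 bases, and of the Insig2 TPM 56.1% from one of 177 bases.

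The comparison of knockout with wild-type gave no call among the 28 genes. No gene of the list passed edgeR's quasi-likelihood test at an adjusted p of 0.05, where 0.0550% of 12716 tested genes (7 genes) did, and DESeq2 also called 0 of 28, against 1.09% of 13395 genes (146 genes). At an unadjusted p under 0.05 there were 4 of 28 genes by either tool, against 12.4% of tested genes by edgeR, a share near that background. The fold change was above 0 for 16 of 28 genes, against 48.3% of tested genes, and the median log2 fold change was 0.02, against -0.01 over all genes tested. The median of the 28 turned to -0.02 without Wild-Type 4 and was 0.09 without Wild-Type 5, and the median of the 18 enzymes, 0.06, was -0.03 and 0.18 there. The knockout and wild-type libraries overlapped for all 28 genes, and 1.32% of tested genes did not overlap.

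**Figure D2:**
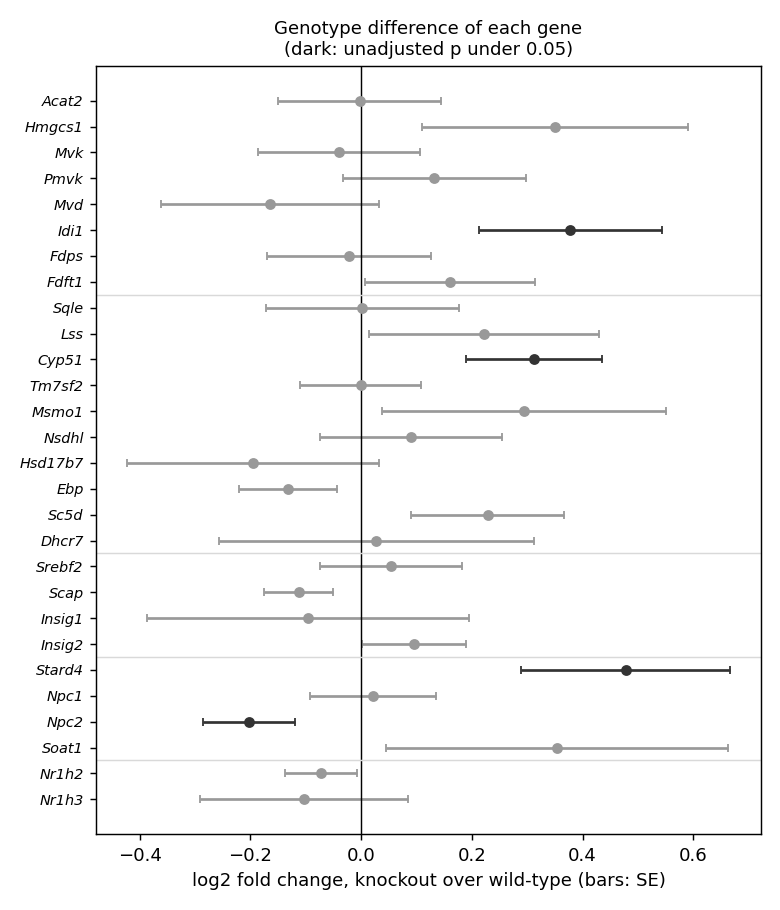
Genotype difference of each of the 28 genes. The x axis is the log2 fold change of knockout over wild-type from edgeR (6 and 5 libraries), bars are the SE, and dark points are the 4 genes with an unadjusted p under 0.05. Differences run from -0.20 (Npc2) to 0.48 (Stard4), and the adjusted p of every gene is 0.3504 or more.

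The 8 enzymes up to squalene split evenly, 4 higher and 4 lower in knockout, with a median log2 fold change of 0.06. Idi1 had the smallest p among them. It was at 18.03, 16.06, 17.51, 10.67, 18.28 and 12.72 CPM in knockout libraries 1 to 6 and at 9.981, 11.82, 11.59, 10.11 and 16.32 CPM in wild-type libraries 1 to 5. Knockout 2, 4 and 6 lay within the wild-type range, and Wild-Type 2, 3 and 5 within the knockout range. Knockout exceeded wild-type by 0.38 on the log2 scale (SE 0.17), with an edgeR adjusted p of 0.382. Hmgcs1 was at 30.51, 30.42, 30.62, 23.06, 45.34 and 20.29 CPM in knockout and at 15.27, 25.77, 21.45, 18.92 and 36.33 CPM in wild-type libraries. Its highest libraries were Knockout 5 and Wild-Type 5, and the difference of 0.35 (SE 0.24) had an edgeR adjusted p of 0.576. It was 0.20 without Knockout 5 and 0.56 without Wild-Type 5. Of its coding bases, 35.1% lie under exons of the antisense Gm48342, and whether the counting used strand is not given in the sources used here. The same holds for 20.5% of the coding bases of Scap, 8.46% of Lss and 2.35% of Npc1, and Tm7sf2 shares 21.0% of its 31-base words with listed transcripts of its neighbour Vps51, so the values of these genes are uncertain to that extent. Idi1 shares 21.2% of its words with GENCODE transcripts of other genes, among them Gm13502, but 0.287% with listed ones. Fdft1 shares 15.8%, with Gm6781, and 0.0% with listed ones. The values of Idi1 and Fdft1 are uncertain to that extent too. The other 6 (Acat2, Mvk, Pmvk, Mvd, Fdps, Fdft1) had log2 fold changes of -0.17 (Mvd) to 0.16 (Fdft1). Single libraries moved both: Mvd was -0.30 without Wild-Type 4 and -0.03 without Wild-Type 2, and Fdft1 0.09 without Knockout 5 and 0.28 without Wild-Type 5.

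From squalene to cholesterol 7 of 10 enzymes were higher and 3 lower in knockout, median 0.06. Cyp51 was at 54.4, 61.59, 61.87, 40.05, 54.85 and 54 CPM in knockout and at 40.03, 43.65, 38.23, 41.64 and 55.77 CPM in wild-type libraries. Knockout 1, 4, 5 and 6 lay within the wild-type range, which Wild-Type 5 extends upward, and Wild-Type 2, 4 and 5 within the knockout range. The difference was 0.31 on the log2 scale (SE 0.12), with an edgeR adjusted p of 0.350. Sqle was at 56.03, 48.57, 67.38, 44.05, 86.69 and 51.41 CPM in knockout and at 62.79, 64.32, 50.38, 46.1 and 71.04 CPM in wild-type libraries, and the genotypes differed by 0.00 on the log2 scale (SE 0.17). Knockout 5 was its highest library and Knockout 4 its lowest, so the spread lay within the genotype. The other 8 ranged from -0.20 (Hsd17b7, which turned to 0.06 without Wild-Type 3) to 0.29 (Msmo1, at 0.15 without Knockout 5 and 0.48 without Wild-Type 5).

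The sensing genes showed 2 higher and 2 lower. Scap was at 59.65, 64.29, 65.57, 60.58, 69.91 and 64.79 CPM in knockout and at 68.88, 70.8, 70.14, 72.49 and 64.4 CPM in wild-type libraries. Knockout 3, 5 and 6 lay within the wild-type range and Wild-Type 1 and 5 within the knockout range, and the difference was -0.11 on the log2 scale (SE 0.06; adjusted p from edgeR, 0.486), but 0.05 with transcript length as an offset. Srebf2 was at 49.94, 58.15, 48.06, 37.76, 56.62 and 39.18 CPM in knockout and at 36.67, 52, 47.12, 46.01 and 50.79 CPM in wild-type libraries, a difference of 0.05 (SE 0.13). Insig1, the INSIG whose gene is itself an SREBP target, was at 41.68, 22.44, 44.53, 37.64, 67.56 and 30.98 CPM in knockout and at 36.88, 50.87, 39.33, 24.87 and 66.23 CPM in wild-type libraries. It varied about as far in each genotype, with Knockout 5 and Wild-Type 5 far above the others and Knockout 2 and Wild-Type 4 lowest, and its difference was -0.10 (SE 0.29). That difference was -0.29 without Knockout 5 and 0.03 without Knockout 2, and reached 0.10 with 1 library left out. Insig2 was at 6.24, 7.333, 6.837, 6.164, 5.434 and 6.43 CPM in knockout and at 5.638, 6.307, 6.471, 5.983 and 5.581 CPM in wild-type libraries, a difference of 0.10 (SE 0.09) that was 0.31 with the length offset and 0.06 without Knockout 2. Knockout 5 and Wild-Type 5, the highest for Insig1, were the lowest for Insig2.

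In transport and storage 3 of 4 genes were higher in knockout. Stard4 was at 2.598, 3.24, 3.799, 2.225, 3.672 and 2.703 CPM in knockout and at 1.681, 1.921, 3.078, 1.974 and 2.211 CPM in wild-type libraries. Knockout 1, 4 and 6 lay within the wild-type range, which Wild-Type 3 extends upward, and Wild-Type 3 was the 1 wild-type library within the knockout range. The difference of 0.48 on the log2 scale (SE 0.19; adjusted p from edgeR, 0.350) rests on 46 to 117 reads per library. Npc2 went the other way, at 73.12, 80.01, 90.27, 85.06, 73.91 and 86.69 CPM in knockout and at 98.37, 90.64, 94.08, 81.15 and 105 CPM in wild-type libraries. Of the wild-type libraries Wild-Type 4 alone lay within the knockout range, Knockout 3, 4 and 6 lay within the wild-type range, and Npc2 differed by -0.20 on the log2 scale (SE 0.08; adjusted p from edgeR, 0.360). Npc1 was at 13.39, 15.62, 13.74, 12.45, 13.55 and 14.94 CPM in knockout and at 12.64, 11.19, 16.71, 16.22 and 11.86 CPM in wild-type libraries, a difference of 0.02 (SE 0.11). Soat1 had a difference of 0.35 (SE 0.31) and the widest spread of the 28 genes, with Knockout 6 at 8.166 CPM and Wild-Type 2 at 2.13 CPM; the difference was 0.12 without Knockout 6 and 0.56 without Wild-Type 4. Both oxysterol receptors were lower, Nr1h2 only without a transcript length offset, which turned it to 0.20. Nr1h2 was at 37.64, 37.65, 37.62, 36.14, 38.7 and 38.61 CPM in knockout and at 38.24, 44.9, 37.88, 41.06 and 36.4 CPM in wild-type libraries, nearly level apart from Wild-Type 2 and 4, with a difference of -0.07 (SE 0.07, edgeR adjusted p = 0.675). Nr1h2 was at -0.03 without Wild-Type 2. Nr1h3 differed by -0.10 (SE 0.19), and by -0.21 without Knockout 2 and -0.01 without Knockout 5.

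The 4 genes with a small unadjusted p depended on single libraries: without Wild-Type 1 there were 0, without Knockout 2, Knockout 3 or Knockout 5 there was 1, and without Knockout 1, Wild-Type 2, Wild-Type 3 or Wild-Type 4 there were 2.

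Of 31 other pathway genes, 28 were tested (Idi2, Soat2 and Ch25h were not), 13 were higher and 15 lower in knockout, and none passed edgeR's test at an adjusted p of 0.05. Their median log2 fold change was -0.01, and 6 of 28 had an unadjusted p under 0.05, against 12.4% of all genes tested. Abca1, the cholesterol efflux pump, averaged 5.96 ± 1.51 CPM (SD, n = 6) in the knockout group against 3.07 ± 1.01 (SD, n = 5), differing by 0.95 on the log2 scale (SE 0.24; adjusted p from edgeR, 0.223). Apoe, the lipoprotein ligand, differed by 0.40 (SE 0.13), Erlin1 by 0.40 (SE 0.14), Vldlr, a lipoprotein receptor, by 0.22 (SE 0.09), Mbtps2, a protease that releases SREBPs, by 0.21 (SE 0.10) and Gramd1a, a sterol carrier, by -0.24 (SE 0.08). Abca1 and Apoe are also expressed by adipocytes and macrophages. The direction of cell type markers was also counted, by edgeR's fold change. Higher in knockout were 7 of 8 adipocyte, 6 of 6 fibroblast, 5 of 5 myoepithelium and 5 of 5 skeletal muscle markers. So were 4 of 5 luminal epithelium, 3 of 4 endothelium and 2 of 5 macrophage markers, against 48.3% of all genes tested. By the same measure, 0 of 7 milk secretory, 0 of 4 tested B cell and 0 of 3 tested T cell markers were higher. No listed marker passed edgeR's test at an adjusted p of 0.05, and the smallest was 0.218 (Cfd). All 4 tested B cell, 5 of 8 adipocyte, 2 of 6 fibroblast and 0 of 7 milk secretory markers had an unadjusted p under 0.05. Knockout 1 stood apart for skeletal muscle markers, at 1986 CPM against at most 167.4 in the other libraries. The 5 macrophage markers summed to 30.39 to 63.24 CPM for knockout and 43.76 to 78.23 CPM for wild-type. The part of these lists in the differences of the cholesterol genes was not tested.

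The enzymes varied over the libraries within each genotype, and most varied together. Each gene's log2 CPM was set against its own mean over 11 libraries. Averaged over the 18 enzymes, Knockout 5 stood at 0.37, Wild-Type 5 at 0.29, Knockout 3 at 0.20, Wild-Type 2 at 0.15, Knockout 1 at 0.07 and Knockout 2 at 0.055. Below their mean, Wild-Type 3 stood at -0.15, Knockout 6 at -0.17, Wild-Type 1 at -0.21, Knockout 4 at -0.26 and Wild-Type 4 at -0.35. All 18 enzymes were above their own mean in Wild-Type 5, and 1 of 18 was in Wild-Type 4. Each genotype thus held libraries at both ends. Across the same libraries the correlation of this enzyme average was 0.193 with the summed adipocyte markers and -0.069 with the summed milk secretory markers. Over the 10 marker lists it ran from -0.217 (luminal epithelium) to 0.42 (T cell, whose 4 markers summed to 0.5116 to 12.28 CPM). These are descriptions over 11 libraries, and the part of cell content was not tested.

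**Figure D3:**
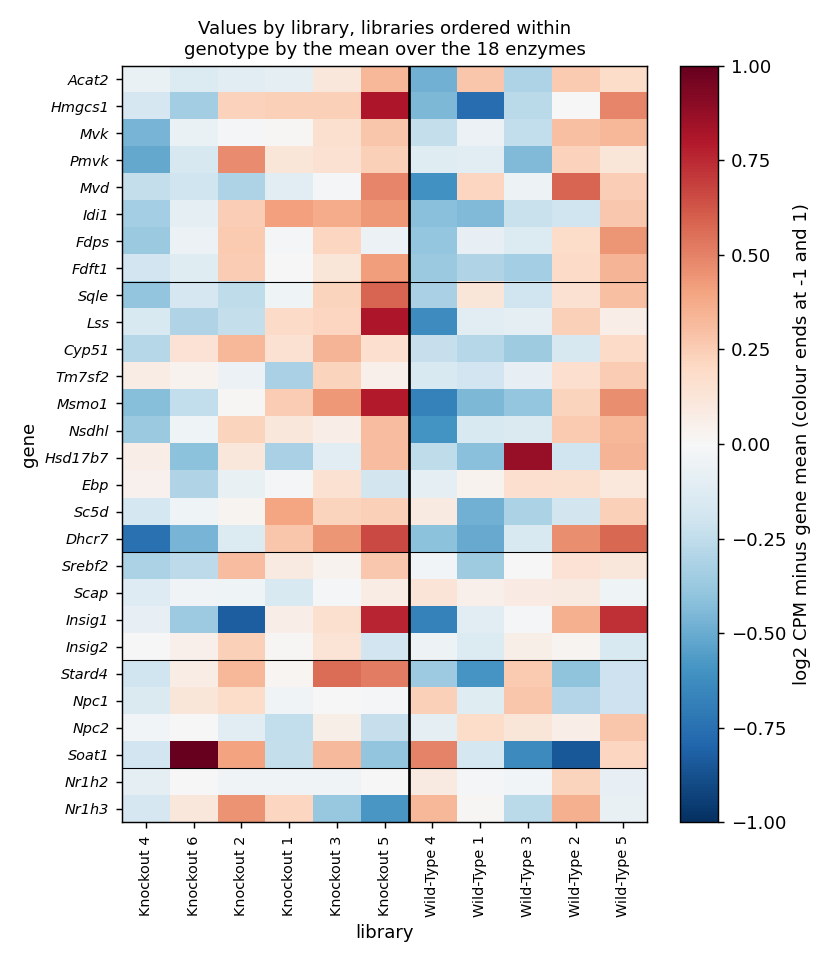
Values of the 28 genes by library. Colour is log2 CPM minus the gene's mean, rows are genes in pathway order and columns are libraries, ordered within knockout (left) and wild-type (right) by the average over the 18 enzymes. The average runs from -0.26 to 0.37 in knockout and from -0.35 to 0.29 in wild-type libraries.

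Over the 153 pairs of enzymes the median Pearson r of log2 CPM was 0.57, 140 pairs were above 0 and 87 (56.9%) above 0.5. Over all 80740278 pairs of tested genes the median was -0.001 and 8.46% were above 0.5. These correlations are descriptions over 11 libraries that share depth and scaling, and the enzymes' median was 0.60 with each genotype centred on its own mean. Fdft1 (median r with the other enzymes 0.74), Nsdhl (0.72), Mvk (0.71) and Msmo1 (0.71) lay closest to the rest, and the closest pair was Msmo1 with Dhcr7 (0.92). Ebp (0.09) and Hsd17b7 (0.17) stood apart, with 0 of 17 correlations above 0.5 each. Ebp was the steadiest of the 18 enzymes, with a coefficient of variation of 10.2%, and Hsd17b7 had 1 high library, Wild-Type 3 at 11.37 CPM.

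**Figure D4:**
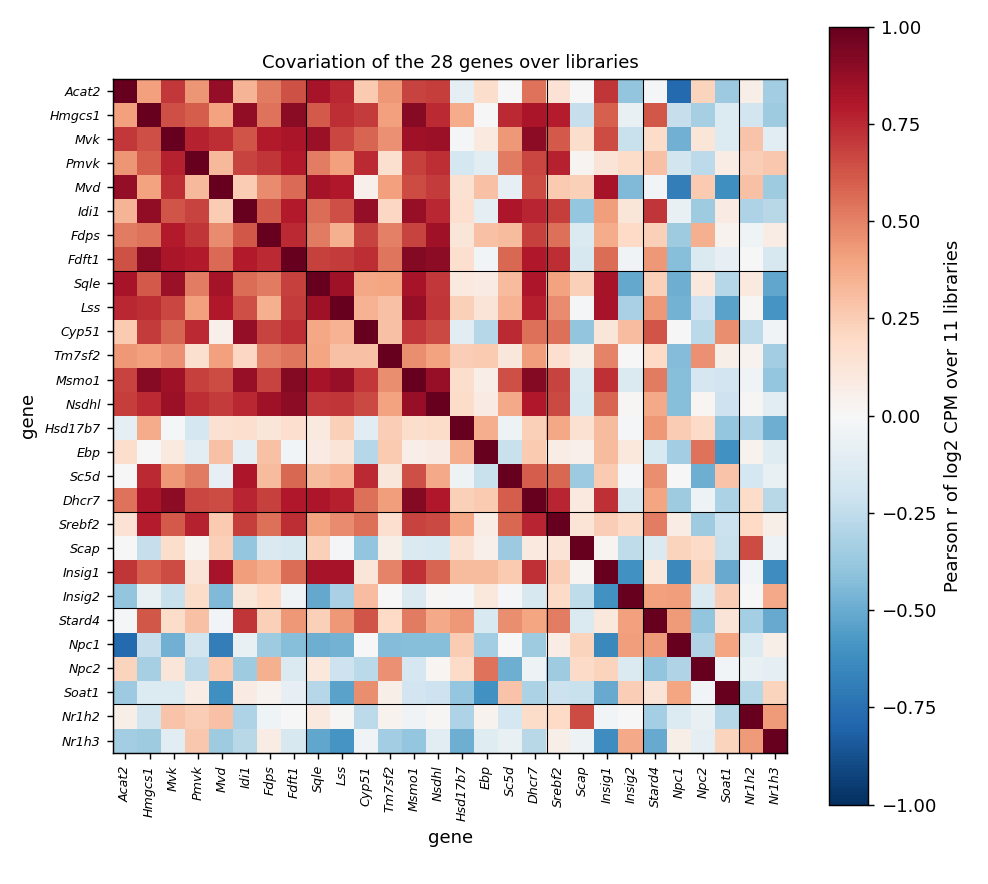
Pearson r of log2 CPM over 11 libraries for each pair of the 28 genes, in pathway order. The colour scale runs from -1 to 1, and lines separate the groups of genes. The block of enzymes is mostly red (median 0.57), with pale rows for Ebp and Hsd17b7, and Scap, Insig2 and Npc1 show no such block.

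Outside the enzymes, Srebf2 (median r with the 18 enzymes 0.56) and Insig1 (0.57) varied with the pathway. Insig1 was closest to Sqle (0.83) and farthest from Cyp51 (0.12), and Srebf2 closest to Hmgcs1 (0.78). Scap (-0.01), Insig2 (-0.02), Npc2 (-0.01) and Nr1h2 (0.01) had medians near 0, and Stard4 had 0.39, with its highest value for Idi1 (0.71). Npc1 (-0.39), Nr1h3 (-0.28) and Soat1 (-0.17) had negative medians, lowest for Npc1 with Acat2 (-0.78) and for Soat1 with Mvd (-0.62). Insig1 had a coefficient of variation of 35.04% over libraries and Scap 6.38%, against a median of 19.9% for the enzymes and 16.9% for 12708 genes.

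The 8 gene pairs listed for the covariation question were tested by permutation of libraries (two-sided, 100000 resamples, Benjamini-Hochberg over 8 pairs). Idi1 with Cyp51 had r = 0.88 (permutation p = 0.0024, adjusted 0.0192) and rho = 0.79 (adjusted p = 0.0385), and r = 0.92 without Knockout 1 and Knockout 5, the libraries farthest from the median of Idi1. Its rho missed the threshold with DESeq2 size factors (permutation test, adjusted p = 0.0653) and without Knockout 4, Knockout 6, Wild-Type 2, Wild-Type 3 or Wild-Type 4 (up to 0.0696). Centred on genotype, r was 0.82 (permutation test, adjusted p = 0.0527) and rho 0.85 (adjusted p = 0.0322). Within the 6 knockout libraries r was 0.78 (exact permutation test, adjusted p = 0.153). Srebf2 with Hmgcs1, the factor and an enzyme gene it is known to activate, had r = 0.78 (permutation p = 0.00493, adjusted 0.0197) and rho = 0.75 (adjusted p = 0.0385), and 0.84 within knockout (exact permutation test, adjusted p = 0.141). Without Knockout 4 and Wild-Type 1, the farthest libraries, r was 0.73 over the 9 left (exact permutation test, adjusted p = 0.0975), no longer past the threshold. The call was also lost without Wild-Type 1 alone (permutation test, r = 0.69, adjusted p = 0.0563) or Knockout 5 alone (r = 0.74, adjusted p = 0.062), and kept without Knockout 4 alone (r = 0.83, adjusted p = 0.0119). Its rho missed the threshold on leaving out any 1 of 7 libraries (permutation test, adjusted p up to 0.092), all but Knockout 1, 2 and 3 and Wild-Type 2. Correlations were computed over 6 or more libraries, so none is given for the 5 wild-type ones.

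Hmgcs1 with Sqle had r = 0.61 (permutation p = 0.0483, adjusted 0.0873), rho = 0.64 (adjusted p = 0.0801), 0.70 without Knockout 5 and Wild-Type 1 and 0.82 within knockout; without Wild-Type 1 alone r was 0.83 (permutation test, adjusted p = 0.0144), and without Knockout 5 alone it was 0.37. Hmgcs1 with Insig1 had r = 0.59 (permutation p = 0.0546, adjusted 0.0873) and rho = 0.73 (adjusted p = 0.039), and r was 0.53 without Knockout 5 and Wild-Type 1 and 0.62 within knockout. The rho missed the threshold with DESeq2 size factors (permutation test, adjusted p = 0.0745), on log2 TPM (0.079) and on leaving out any 1 of 8 libraries (up to 0.145), all but Knockout 2, Wild-Type 1 and Wild-Type 2. Knockout 2, with Hmgcs1 near the middle and the lowest Insig1, stood off that relation, and without it r was 0.83 (permutation test, adjusted p = 0.0138), whereas without Knockout 5 it was 0.43. Insig1 with Insig2, the INSIG not driven by SREBP2, had r = -0.60 (permutation p = 0.0488, adjusted 0.0873), rho = -0.42 (adjusted p = 0.272) and -0.84 within knockout, but -0.16 without Knockout 2 and Knockout 5, so it rests on those libraries. On log2 TPM it was -0.02 (rho -0.09), and without Wild-Type 4 it was -0.74 on log2 CPM (permutation test, adjusted p = 0.0347).

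The lysosomal partners Npc1 and Npc2 had r = -0.30 (permutation p = 0.365, adjusted 0.417), rho = -0.28 (adjusted p = 0.463), -0.50 without Wild-Type 2 and Wild-Type 3 and 0.08 within knockout. Hmgcs1 with the milk protein gene Csn2 had r = -0.26 (permutation p = 0.434, adjusted 0.434), rho = -0.19 (adjusted p = 0.577), -0.14 without Knockout 5 and Wild-Type 1 and 0.08 within knockout. Hmgcs1 with the adipocyte gene Adipoq had r = 0.40 (permutation p = 0.221, adjusted 0.295), rho = 0.48 (adjusted p = 0.22), 0.45 without the same libraries and 0.13 within knockout. On log2 TPM Hmgcs1 with Adipoq passed (permutation test, r = 0.64, adjusted p = 0.0473) and Npc1 with Npc2 turned to 0.42; centred on genotype they were 0.14 and -0.31. None of these pairs passed the test on log2 CPM, which does not show that the genes vary independently.

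**Figure D5:**
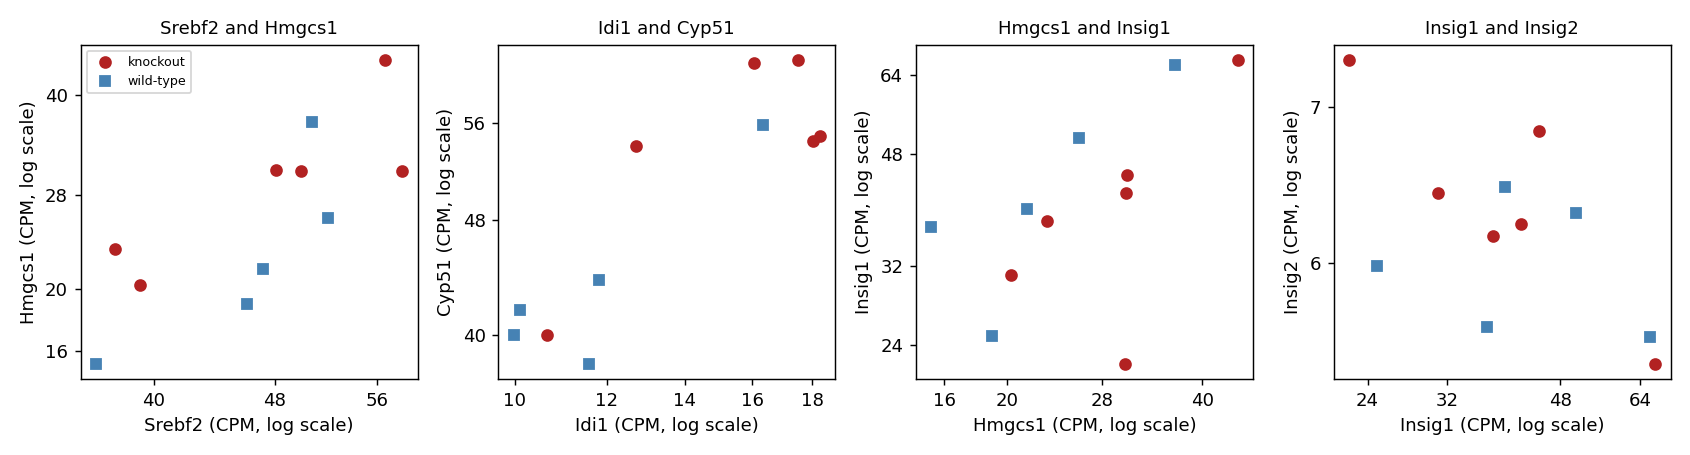
Levels of gene pairs over 11 libraries. Both axes are CPM on log scales, circles are the 6 knockout and squares the 5 wild-type libraries. Srebf2 with Hmgcs1 (r = 0.78) and Idi1 with Cyp51 (r = 0.88) slope up over the 11 libraries, Knockout 2 lies below the others for Hmgcs1 with Insig1 (r = 0.59), and Insig1 with Insig2 slopes down (r = -0.60).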

How the data were processed

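Total RNA was purified with a PureLink kit and made into libraries with the NEBNext Ultra II Directional kit, per the labels. Transcripts were quantified with Salmon 1.3.0 on GRCm38.p6, per the submitters' processing notes, which also name DESeq2 1.28.1. The authors deposited estimated counts, TPM and effective lengths per transcript; strand and index settings are not given in the sources used here. Estimated counts were summed per gene through GENCODE M21 (752 of 58204 transcripts unmatched, at most 0.265% of reads), rounded, and tested with edgeR 4.0.16 (filterByExpr, TMM, robust quasi-likelihood test, genotype only, Benjamini-Hochberg over 12716 genes; common coefficient of biological variation 24.1%; checked on simulated data). Depth was 25817975 to 37894237 reads. Correlations used log2 CPM with a prior count of 2. Deposited TPM served as an alternative, since short fragments dominate some gene sums; DESeq2 1.42.0 was another. The members, lists and motifs were chosen with earlier results of these data known. Every member is named; values per library are given for the smallest p in each role, any unadjusted p under 0.05, and members of the 8 pairs. Alternatives are in the closing section.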

Additional observations from a re-analysis of the deposited data

Results flagged for a closer look

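Of 56 sets of libraries (28 genes in each genotype), 3 had 1 library far from the rest by Dixon's 95% limit, where chance gives about 1 in 20. Mvd was at 28.49 CPM in Knockout 5, with the other knockout libraries at 16.44 to 20.05 CPM. Lss was at 24.31 CPM in the same library, with the others at 11.21 to 16.05 CPM. Cyp51 was at 40.05 CPM in Knockout 4, with the others at 54 to 61.87 CPM; without that library knockout differed from wild-type by 0.39 on the log2 scale (adjusted p from edgeR, 0.317).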

How the results depend on the processing

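No alternative called any of the 28 genes: 504 member fold changes were recomputed, and the smallest adjusted p was 0.221 (Npc2 without Wild-Type 4). Genes called over the whole table were 146 with DESeq2's Wald test, 0 with the replicate block on numbers 1 to 5 and 0 in the same libraries unblocked. The unblocked fit was added after seeing the data. It is the same as the fit without Knockout 6, so its values are counted again in the 504. Leaving out 1 library gave 0 to 28 (0 without Knockout 3 or Knockout 6, 2 without Knockout 1 or Wild-Type 3, 13 without Wild-Type 1 or Wild-Type 5, 14 without Wild-Type 4, 28 without Knockout 2). Members with an unadjusted p under 0.05 ranged from 0 to 5, and members higher in knockout from 13 to 20. The replicate numbers did not pair the samples: same-numbered libraries correlated at -0.02, -0.10, 0.19, -0.22 and -0.21, and 1 of 5 correlated best with its own number. The block gave 6 members with an unadjusted p under 0.05 and changed no member's call.

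Signs of 13 members turned under at least 1 alternative. Acat2 was 0.0026 with DESeq2 size factors, 0.0028 with DESeq2, 0.0 with the length offset, 0.056 with the block and 0.033 unblocked; Tm7sf2 was 0.0053, 0.0054, 0.17, 0.0014 and 0.0012 in the same order and 0.0016 scaled without the 20 most abundant genes. Fdps was 0.010 with the block, and the length offset gave -0.08 for Dhcr7, 0.054 for Scap and 0.20 for Nr1h2. With 1 library left out the ranges were -0.10 to 0.070 (Acat2), -0.10 to 0.042 (Mvk), -0.11 to 0.10 (Fdps), -0.13 to 0.077 (Sqle), -0.047 to 0.067 (Tm7sf2), -0.020 to 0.19 (Nsdhl), -0.31 to 0.064 (Hsd17b7), -0.11 to 0.19 (Dhcr7), -0.0205 to 0.12 (Srebf2), -0.29 to 0.10 (Insig1) and -0.044 to 0.10 (Npc1).

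On log2 TPM, which carries no TMM scaling, r passed the threshold for Hmgcs1 with Sqle (0.80), with Insig1 (0.67) and with Adipoq (0.64), turned to 0.42 for Npc1 with Npc2 and was -0.02 for Insig1 with Insig2, and the enzymes' median r, an alternative added after seeing the data, was 0.74. Idi1 with Cyp51 missed it centred on genotype (0.82) and within knockout (0.78), and Srebf2 with Hmgcs1 within knockout (0.84) and without its 2 farthest libraries (0.73). On log2 TPM both pairs kept the call (0.94 and 0.84), and Srebf2 with Hmgcs1 kept it centred on genotype (0.82). Within knockout Npc1 with Npc2 turned to 0.084 and Hmgcs1 with Csn2 to 0.081. Leaving out 1 library gave 0.37 to 0.83 (Hmgcs1 with Sqle) and 0.43 to 0.83 (Hmgcs1 with Insig1), both lowest without Knockout 5, 0.69 to 0.83 (Srebf2 with Hmgcs1), -0.74 to -0.40 (Insig1 with Insig2) and 0.52 to 0.63 for the enzymes' median. The cause of these changes was not tested. Among the 28 genes, depth limits Stard4 most, at 46 to 117 reads per library.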
